A study of Rattus norvegicus with 4 samples.

Results

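The genes described here encode the matrix metalloproteinases (MMPs), the ADAM, ADAMTS and ADAMTS-like proteins and the tissue inhibitors of metalloproteinases (TIMPs). They were chosen by symbol alone, as Mmp, Timp, Adam, Adamts or Adamtsl followed by a digit, which gave 52 of the 15731 genes listed for neonatal rat cardiomyocytes. Of these, 38 had more than 1.0 RPKM (mapped reads scaled to exon length and library size) in at least 1 of the 4 libraries and were compared between miRNA mimics. The study asked how the transcriptome of these heart muscle cells responds to each miRNA of the miR-106b~25 cluster.

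Each of the 4 libraries came from 1 culture of ventricular cardiomyocytes of wild type Wistar rats at postnatal day 1, transfected with a mimic of a human miRNA (hsa-miR-25-3p, hsa-miR-93-5p or hsa-miR-106b-5p) or of the nematode miRNA cel-miR-67, the control. The labels give postnatal day 1 and the isolation protocol day 0. The groups are called by the mimic below, without species and arm. RNA was taken 72 h after transfection, and the medium was replaced at 24 h. The mimic concentration is given as 25 nM in one protocol and as 25 mM in another. Cells that stuck to plastic in a first plating step were left behind when the cultures were made, and all 4 cultures carried a mimic, so no untransfected cells were compared. With 1 library per mimic there is no replicate check, no test was possible, and the intervals given below cover counting error only.

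MMPs, ADAMTS proteases and the ADAMs with a protease motif are zinc enzymes made as inactive precursors. They cut proteins outside the cell or at its surface. Adam4, Adam11, Adam22 and Adam23 fall outside that group of ADAMs and were not compared. MMPs degrade collagen, elastin and other matrix proteins, ADAMs release the outer parts of membrane proteins such as growth factors and receptors, and ADAMTS enzymes process procollagen and proteoglycans. ADAMTS-like proteins share the matrix-binding domains of ADAMTS enzymes but have no protease domain, and TIMPs bind the active proteases and block them. In the heart these proteins are known for their part in valve development and in the remodelling of the matrix after injury.

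The miRNAs differ in the seed, the stretch of bases 2 to 8 that pairs with target transcripts, and the rat forms are shown because the mimics are compared by seed below. The capitals mark the seed in the mature rat sequences of RefSeq (GRCr8), which lie on the minus strand at chr12:22157103-22157123 for miR-106b-5p, chr12:22156894-22156916 for miR-93-5p and chr12:22156652-22156673 for miR-25-3p. The human mimic sequences were not used here.
rno-miR-106b-5p: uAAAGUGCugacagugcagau
rno-miR-93-5p: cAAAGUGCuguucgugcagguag
rno-miR-25-3p: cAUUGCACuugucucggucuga
The seed AAAGUGC is shared by miR-106b and miR-93, whereas miR-25 has the seed AUUGCAC.

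The deposited RPKM values were multiples of whole reads, which gave between 15175185 and 18797234 reads on listed genes per library, or 60.4% to 66.9% of the library size implied by the values. No compared member had fewer than 52 reads in any library. Markers of cardiomyocytes were abundant in all 4 libraries, with Tnnt2 between 1749.9 and 2433 RPKM. With miR-25, however, 7 of 7 compared cardiomyocyte markers were lower than with cel-miR-67 by more than 1.3-fold, and their summed level was 6514 against 12599 RPKM. Under miR-106b and miR-93 that sum was 12527 and 10436 RPKM, with 2 and 3 of the 7 markers lower and Tnni3 higher with both. All 4 smooth muscle markers were higher with miR-25, at a summed 2051 against 745 RPKM, where miR-106b and miR-93 gave 686 and 583 RPKM. Of 9 fibroblast markers, 5, 4 and 7 were lower in the order miR-106b, miR-93, miR-25, with summed levels of 653, 759 and 333 against 837 RPKM, and Lum was higher with miR-25. Macrophage and endothelial markers were low in every library, at summed levels of 12.4 to 19.1 and 3.68 to 4.89 RPKM. None of the markers listed was at 0, and Ttn and Pecam1 were not used here. The share of these marker differences in the results on metalloproteinases was not tested, and in such bulk RNA fewer cells of a type and less RNA per cell cannot be told apart.

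In the control, 5 genes held 45.1% of the summed 566 RPKM of all 52 members. They were Mmp2 at 71.6 RPKM, Adam19 at 65.0, Mmp14 at 42.7, Timp3 at 41.4 and Timp2 at 34.5. The summed level of the whole set was 481 RPKM with miR-106b, 503 for miR-93 and 524.5 with miR-25. Within that sum the MMPs varied least, from 148 to 165 RPKM over the 4 libraries, and the 5 ADAMTS-like genes stood at 49.9 RPKM in the control and at 27.6 to 29.7 RPKM with the mimics. The TIMPs stood at 109 RPKM in the control and at 90.7, 100.2 and 143 RPKM in the order miR-106b, miR-93, miR-25. The ADAMs stood at 149, 138, 136 and 124 RPKM and the ADAMTS enzymes at 92.9, 75.9, 80.0 and 71.1 RPKM starting from the control.

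**Figure D1:**
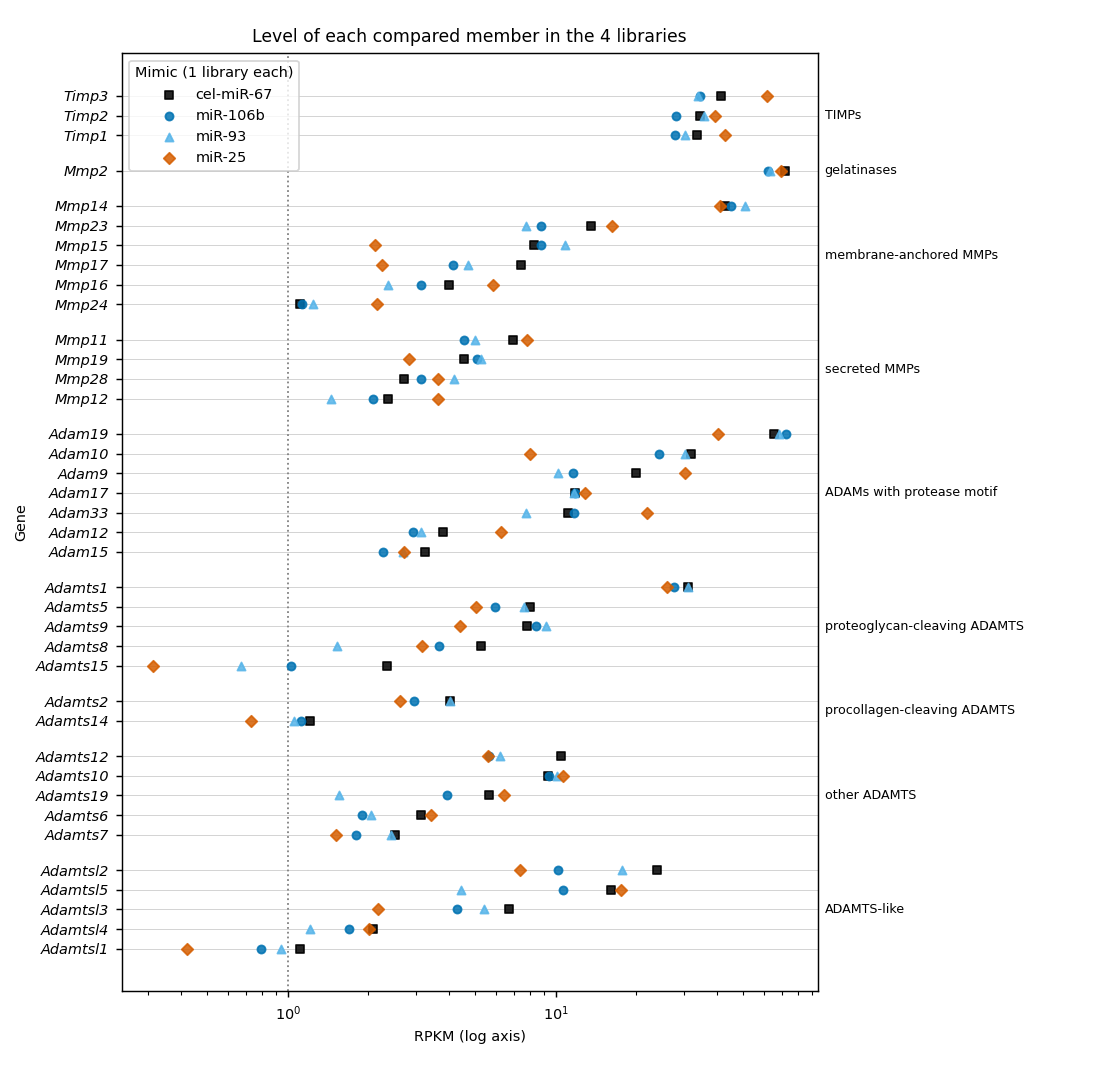
RPKM of the 38 compared members (log axis) in each of the 4 libraries, grouped by role, with 1 symbol per library and a dotted line at 1.0 RPKM. The levels run from 0.315 RPKM for Adamts15 with miR-25 to 72.3 RPKM for Adam19 with miR-106b, and the miR-25 symbols lie to the right of the others for all 3 TIMPs and to the left for Adam10, Mmp15 and Adamtsl3.

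The remaining 14 members stayed at or below 1.0 RPKM in all libraries and were not compared. They were Adam4, Adam8, Adam11, Adam22, Adam23, Adam28, Adamts3, Adamts4, Adamts16, Adamts17, Adamts20, Mmp9, Mmp21 and Timp4. The highest of them were Adamts20 at 0.971 RPKM, Adamts3 at 0.934 and Adam23 at 0.843, and the lowest compared members peaked at 1.11 RPKM for Adamtsl1, 1.22 for Adamts14 and 2.07 for Adamtsl4. Mmp9, the second gelatinase, was at 0.261 RPKM in the control, 0.242 with miR-106b, 0.179 in the miR-93 library and 0.132 with miR-25, which came from 23, 28, 19 and 14 reads. Adamts4, an aggrecan-cleaving enzyme, was at 0.227 RPKM in the control, 0.179 with miR-106b, 0.201 in the miR-93 library and 0.111 with miR-25. Timp4 was at 0.0778 RPKM in the control, 0.316 with miR-106b, 0.237 in the miR-93 library and 0.0431 with miR-25, or 3, 16, 11 and 2 reads, so it had too few reads to compare.

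Against cel-miR-67, 18 of the 38 compared members were lower with miR-106b by more than 1.3-fold and 0 were higher. That is 47.4% of the members, where 27.8% of all 12193 genes above 1.0 RPKM passed in either direction, 13.9% of them lower and 13.8% higher. With miR-93, 15 members were lower and 2 higher, or 44.7% against 34.1% of all genes, of which 16.9% were lower and 17.2% higher. Rescaling each library to its reads on listed genes, which moved the median gene by 0.15 on the log2 scale, changed the miR-93 counts to 13 lower and 4 higher, beside 11% and 26.9% of all genes. Under miR-106b it left 15 members lower. With miR-25, 16 members were lower and 8 higher, or 63.2% against 45.1% of all genes, of which 24.2% were lower and 20.9% higher. Rescaling gave 16 and 10 members. The rescaled shares of all genes were not computed for miR-106b and miR-25, where the median of all genes moved to 0.08 and 0.13. The rescaled counts of these 2 mimics therefore cannot be set against the shares given here. The 95% exact interval left out a log2 ratio of 0 for all of these members. The 3 comparisons share the control library, so an error in its values would appear in all of them.

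The median log2 ratio of the members to cel-miR-67 was -0.36 with miR-106b, -0.25 for miR-93 and -0.06 with miR-25, where the median of all genes was -0.00061, 0.0025 and -0.014. The miR-25 median turned to 0.09 when libraries were rescaled to reads on listed genes, and the miR-93 medians of the ADAMTS enzymes and the TIMPs, both -0.14, turned to 0.0023 and 0.0028. This rescaling moves all genes alike, and the median of all genes then stood at 0.13 with miR-25 and 0.15 with miR-93, still above these medians. By family, the lower calls with miR-106b and miR-25 lay mostly in the ADAMTS and ADAMTS-like genes. With miR-93, 45.5% of the MMPs were lower, beside 41.7% of the ADAMTS enzymes and 60% of the ADAMTS-like genes. Of 12 ADAMTS enzymes 8, 5 and 8 were lower in the order miR-106b, miR-93, miR-25, and 0 were higher with any of them. Of 5 ADAMTS-like genes 4, 3 and 3 were lower in the same order, and 0 were higher. Adamtsl1, counted as lower with miR-106b and miR-25, passed 1.0 RPKM only through the control. With more than 1.0 RPKM required in both libraries, 17 members were lower with miR-106b and 14 with miR-93. With more than 2.0 RPKM in both, these counts were 14 and 10. Requiring 1.0 RPKM in both libraries drops Adamts14, Adamts15 and Adamtsl1 from the lower members with miR-25, where each was below that level. The 11 MMPs gave 3, 5 and 3 lower and 0, 2 and 4 higher members, the 7 ADAMs 3, 2 and 2 lower and 0, 0 and 3 higher, and of the 3 TIMPs only Timp3 passed, with miR-25, joined by Timp1 after rescaling.

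**Figure D2:**
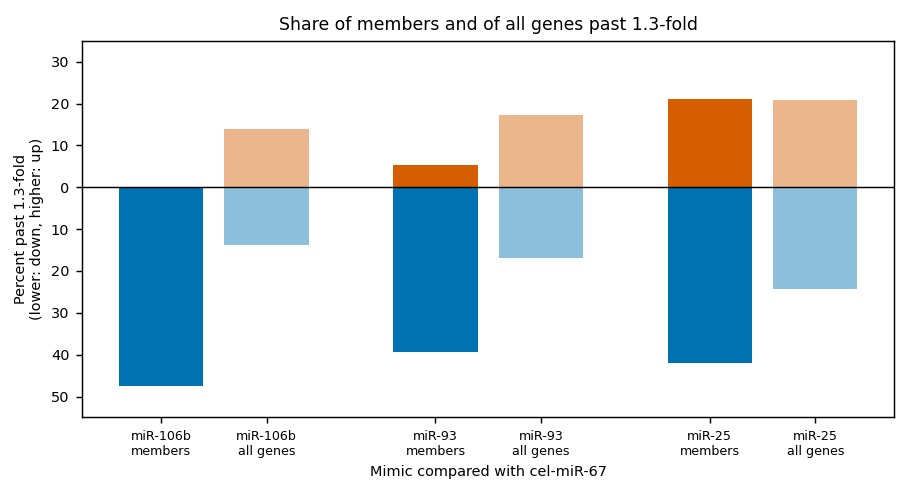
Percent of genes past 1.3-fold against cel-miR-67 for each mimic, with higher genes drawn upwards and lower genes downwards from 0, for the 38 compared members (dark bars) and all 12193 genes above 1.0 RPKM (light bars). The dark bars reach 47.4%, 39.5% and 42.1% downwards in the order miR-106b, miR-93, miR-25, past the light bars at 13.9%, 16.9% and 24.2%, while upwards they reach 0%, 5.26% and 21.1% against 13.8%, 17.2% and 20.9%.

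Among the inhibitors, Timp3, which binds to the matrix and blocks ADAM17 and several ADAMTS enzymes as well as MMPs, was at 41.4 RPKM in the control, 34.4 with miR-106b, 34.0 in the miR-93 library and 61.3 with miR-25. The miR-25 library was the highest of the 4, with a log2 ratio to cel-miR-67 of 0.57 (95% exact interval 0.48 to 0.65, as in the parentheses after each ratio below). Timp1, the soluble inhibitor that is induced in many injured tissues, was at 33.5 RPKM in the control, 27.9 with miR-106b, 30.3 in the miR-93 library and 42.7 with miR-25. Its log2 ratio with miR-25 was 0.35 (0.20 to 0.51), just inside the 1.3-fold limit, and became 0.50, past it, when libraries were rescaled to reads on listed genes. Timp2, which takes part in the activation of pro-MMP2 at the cell surface, was at 34.5 RPKM in the control, 28.1 with miR-106b, 35.6 in the miR-93 library and 39.3 with miR-25 and gave 0.19 (0.08 to 0.29) with miR-25. With miR-106b the 3 log2 ratios lay between -0.30 and -0.26, and their intervals left out 0.

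Compared directly, 3 of 3 TIMPs were higher with miR-25 than with miR-106b by more than 1.3-fold, where 23.5% of all genes were higher in that comparison. The log2 ratios of miR-25 over miR-106b were 0.61 (0.46 to 0.77) for Timp1, 0.49 (0.38 to 0.59) for Timp2 and 0.83 (0.75 to 0.92) for Timp3. Against miR-93, Timp1 and Timp3 passed with 0.49 and 0.85, whereas Timp2 did not, with 0.14 (0.04 to 0.24). Reck, a membrane-anchored MMP inhibitor outside the set, was at 1.71 RPKM in the control, 1.86 with miR-106b, 2.23 in the miR-93 library and 3.18 with miR-25, with log2 ratios to cel-miR-67 of 0.11, 0.38 and 0.89 in the order miR-106b, miR-93, miR-25.

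Mmp2, the gelatinase that degrades denatured collagen and basement membrane collagen, was at 71.6 RPKM in the control, 62.1 with miR-106b, 63.2 in the miR-93 library and 69.1 with miR-25 and did not pass 1.3-fold with any mimic. Its activator Mmp14, a membrane-anchored collagenase, was at 42.7 RPKM in the control, 44.9 with miR-106b, 50.8 in the miR-93 library and 40.8 with miR-25 and did not pass either, with a largest log2 ratio of 0.25 (0.18 to 0.33) with miR-93, which became 0.40, past the limit, after rescaling to reads on listed genes. Both were among the 5 most abundant members in every library. Mmp14 activates pro-MMP2 through TIMP2, and the RPKM ratio of Mmp14 to Timp2 was 1.24 (95% interval 1.15 to 1.32) with cel-miR-67, 1.597 (1.4996 to 1.702) with miR-106b, 1.43 (1.34 to 1.51) for miR-93 and 1.04 (0.978 to 1.103) with miR-25. The RPKM ratio of Mmp2 to Timp2 was 2.07 (1.95 to 2.20), 2.21 (2.08 to 2.35), 1.77 (1.68 to 1.88) and 1.76 (1.67 to 1.85) in the same order. The intervals of cel-miR-67 and miR-106b overlapped in this second ratio, as did those of miR-93 and miR-25.

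The other membrane-anchored MMPs lay on different sides of the control. Mmp15, a transmembrane enzyme close to Mmp14, was at 8.28 RPKM in the control, 8.79 with miR-106b, 10.8 in the miR-93 library and 2.12 with miR-25. Its level with miR-25 was 3.91-fold below the control, a log2 ratio of -1.97 (-2.19 to -1.75), and with miR-93 it lay just past 1.3-fold on the other side, at 0.38 (0.25 to 0.52), and inside it with a pseudocount of 1 RPKM, at 0.34. Mmp17, which is held in the membrane by a lipid anchor, was at 7.44 RPKM in the control, 4.14 with miR-106b, 4.68 in the miR-93 library and 2.24 with miR-25. All 3 mimics lay below the control, with log2 ratios of -0.85 (-1.03 to -0.66) for miR-106b, -0.67 (-0.85 to -0.49) for miR-93 and -1.73 (-1.97 to -1.51) for miR-25.

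Mmp16, another transmembrane MMP, was at 3.99 RPKM in the control, 3.13 with miR-106b, 2.37 in the miR-93 library and 5.84 with miR-25. The miR-93 library was lowest and the miR-25 library highest, with log2 ratios of -0.75 (-1.005 to -0.50) and 0.55 (0.35 to 0.75) to the control. Mmp23, which is anchored through its N-terminal part, was at 13.5 RPKM in the control, 8.79 with miR-106b, 7.72 in the miR-93 library and 16.3 with miR-25, with log2 ratios of -0.62 (-0.80 to -0.44) for miR-106b and -0.81 (-0.99 to -0.62) with miR-93. Its miR-25 level lay within 1.3-fold, at 0.27 (0.11 to 0.43), and past it at 0.42 after rescaling. Mmp24, a transmembrane MMP studied mainly in neurons, was at 1.11 RPKM in the control, 1.13 with miR-106b, 1.24 in the miR-93 library and 2.16 with miR-25. Only the miR-25 library stood apart, with 0.97 (0.65 to 1.29).

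The secreted MMPs were present at low levels. Mmp11, which is activated inside the cell by furin, was at 6.93 RPKM in the control, 4.55 with miR-106b, 5.01 in the miR-93 library and 7.81 with miR-25 and was lower with miR-106b and miR-93, with log2 ratios of -0.61 (-1.01 to -0.21) and -0.47 (-0.87 to -0.07), the second of which became -0.32, inside the limit, after rescaling. Mmp12, the macrophage elastase, was at 2.37 RPKM in the control, 2.08 with miR-106b, 1.45 in the miR-93 library and 3.65 with miR-25, with -0.70 (-1.17 to -0.25) for miR-93 and 0.63 (0.26 to 0.999) for miR-25. Of the 6 compared macrophage markers, 3 were higher with miR-93 and Lyz2 was lower, at -0.91 (-1.25 to -0.57), and 5 were lower with miR-25, where Lyz2 gave -0.08. Among these calls, the intervals of Cd68 with miR-93 (-0.07 to 0.98) and of C1qb with miR-25 (-1.26 to 0.21) held 0. The part of these markers in the Mmp12 values was not tested. Mmp19 was at 4.53 RPKM in the control, 5.06 with miR-106b, 5.28 in the miR-93 library and 2.84 with miR-25 and was lower with miR-25, at -0.68 (-0.99 to -0.37). Mmp28, the epilysin of epithelia and other tissues, was at 2.71 RPKM in the control, 3.15 with miR-106b, 4.18 in the miR-93 library and 3.63 with miR-25, with 0.62 (0.26 to 0.99) for miR-93 and 0.42 (0.05 to 0.80) for miR-25.

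**Figure D3:**
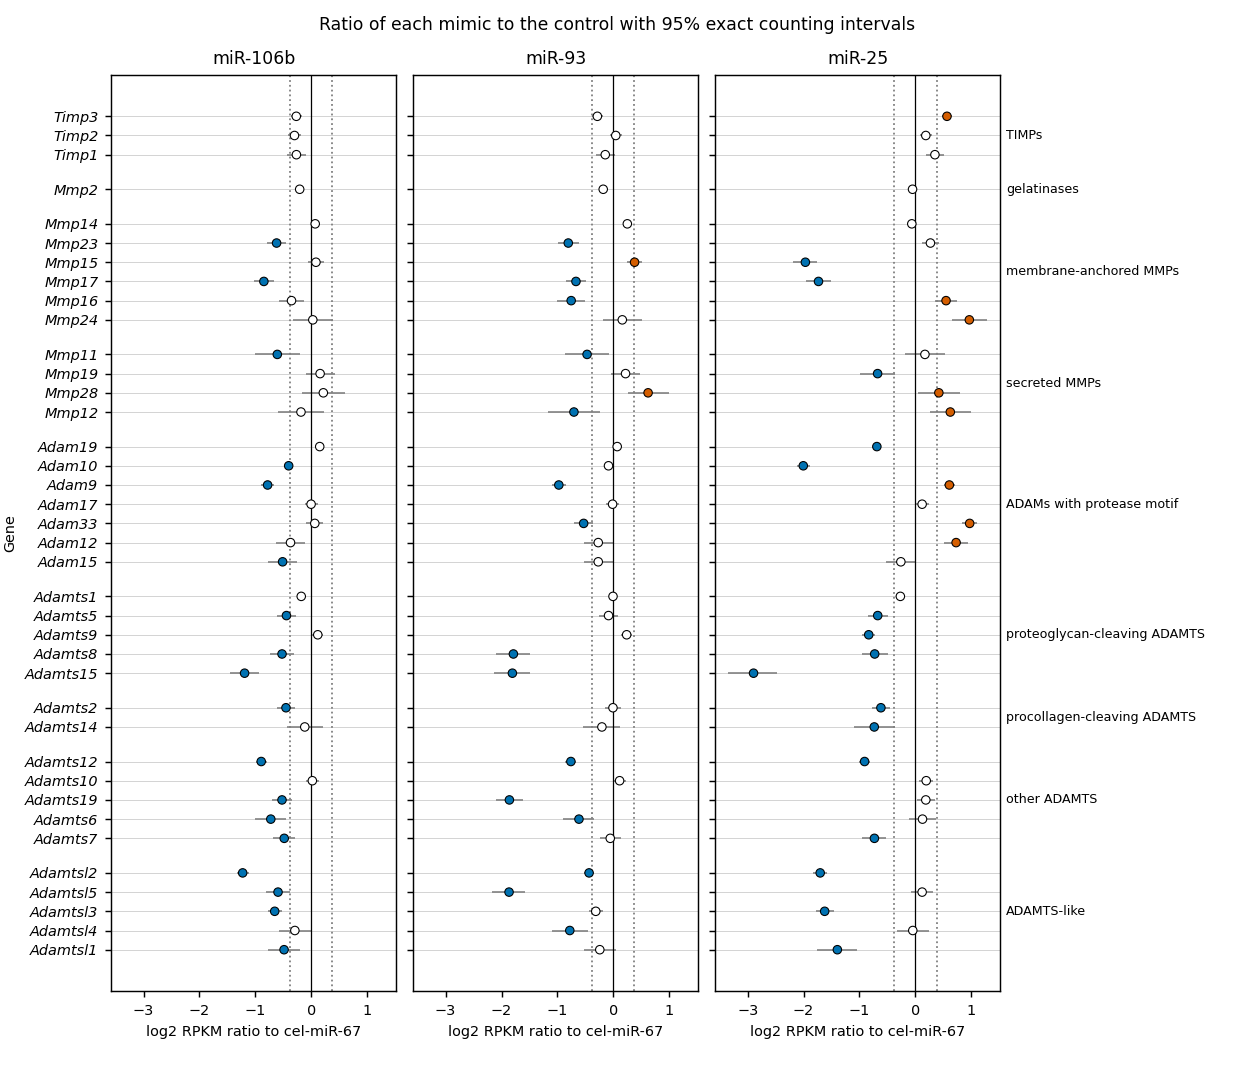
Log2 ratio of RPKM to cel-miR-67 for the 38 compared members with each mimic, with 95% exact counting intervals as horizontal lines and dotted lines at 1.3-fold in either direction. Blue points are lower and orange points higher than 1.3-fold (18 and 0, 15 and 2, and 16 and 8 members in panels ordered miR-106b, miR-93, miR-25), and the miR-25 ratios spread from -2.90 for Adamts15 to 0.97 for Adam33.

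ADAM10 and ADAM17 are the main sheddases of Notch receptors, cadherins, growth factors and cytokines. Adam10 (ENSRNOG00000054257) was at 32.1 RPKM in the control, 24.3 with miR-106b, 30.2 in the miR-93 library and 7.99 with miR-25. Its miR-25 level lay 4.02-fold below the control, a log2 ratio of -2.01 (-2.12 to -1.89) from 824 against 2753 reads. With miR-106b the log2 ratio was -0.40 (-0.48 to -0.33), or -0.32, inside 1.3-fold, after rescaling, and with miR-93 it was -0.09 (-0.16 to -0.01), inside 1.3-fold. Adam17 (ENSRNOG00000060694), the converting enzyme of tumour necrosis factor, was at 11.8 RPKM in the control, 11.8 with miR-106b, 11.7 in the miR-93 library and 12.8 with miR-25, and no mimic lay past 1.3-fold from the control. The ratio of Adam10 to Adam17 in RPKM was therefore 2.72 (95% interval 2.54 to 2.92) with cel-miR-67, 2.06 (1.93 to 2.20) with miR-106b and 2.59 (2.42 to 2.76) with miR-93, but 0.623 (0.571 to 0.679) with miR-25. Adam17 was thus the more abundant of the pair only in the miR-25 library.

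Adam9, a membrane protease that can also shed growth factors, was at 20.0 RPKM in the control, 11.6 with miR-106b, 10.2 in the miR-93 library and 30.4 with miR-25. It was lower with miR-106b and miR-93, with log2 ratios of -0.78 (-0.90 to -0.66) and -0.97 (-1.10 to -0.85), and higher with miR-25, at 0.61 (0.51 to 0.70). The RPKM ratio of Adam9 to Adam10 was 0.623 (0.583 to 0.664) with cel-miR-67, 0.479 (0.446 to 0.515) with miR-106b, 0.336 (0.311 to 0.363) for miR-93 and 3.81 (3.52 to 4.13) with miR-25. Adam10 exceeded Adam9 in 3 libraries, and the order was inverse with miR-25.

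Adam33, an ADAM of mesenchymal cells, was at 11.1 RPKM in the control, 11.7 with miR-106b, 7.72 in the miR-93 library and 21.9 with miR-25. The miR-93 library lay below the control with -0.53 (-0.70 to -0.36) and the miR-25 library above it with 0.97 (0.83 to 1.11). Adam12, a protease of fusing and regenerating muscle, was at 3.78 RPKM in the control, 2.93 with miR-106b, 3.14 in the miR-93 library and 6.27 with miR-25, with 0.73 (0.51 to 0.95) for miR-25. Both of these genes, together with Adam9, were the ADAMs higher with miR-25. In that library all 4 smooth muscle markers and the fibroblast marker Lum were also higher. There 7 of 7 cardiomyocyte and 7 of 9 fibroblast markers were lower. The part of these marker differences in the ADAM values was not tested. Adam19, which is needed for the closure of the heart septa and for valve formation, was the most abundant ADAM at 65.0 RPKM in the control, 72.3 with miR-106b, 68.3 in the miR-93 library and 40.3 with miR-25. It was lower with miR-25, at -0.69 (-0.73 to -0.64), and stayed within 1.3-fold with the other mimics. Adam15 was at 3.24 RPKM in the control, 2.27 with miR-106b, 2.69 in the miR-93 library and 2.71 with miR-25 and passed only with miR-106b, at -0.51 (-0.77 to -0.25).

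Among the proteoglycan-cleaving ADAMTS enzymes, Adamts15 (ENSRNOG00000009892) showed the lowest ratio of any compared member. It was at 2.34 RPKM in the control, 1.03 with miR-106b, 0.670 in the miR-93 library and 0.315 with miR-25, from 322, 185, 111 and 52 reads. The log2 ratios were -1.19 (-1.46 to -0.93) with miR-106b, -1.81 (-2.13 to -1.49) for miR-93 and -2.90 (-3.35 to -2.47) with miR-25, the last of which is 7.44-fold below the control. Its 4 levels were fully ordered, since the counting intervals of all ratios between mimics also left out 0. Adamts8, which is strongly expressed in lung and heart, was at 5.27 RPKM in the control, 3.67 with miR-106b, 1.53 in the miR-93 library and 3.18 with miR-25. All 3 mimics lay below the control, and miR-93 lay lowest, with -0.52 (-0.74 to -0.30), -1.79 (-2.09 to -1.49) and -0.73 (-0.96 to -0.49) in the order miR-106b, miR-93, miR-25.

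Adamts1, which cleaves versican in the developing heart, was the most abundant ADAMTS enzyme at 31.3 RPKM in the control, 27.6 with miR-106b, 31.2 in the miR-93 library and 25.9 with miR-25 and passed 1.3-fold with no mimic. Adamts9, another versicanase, was at 7.80 RPKM in the control, 8.46 with miR-106b, 9.21 in the miR-93 library and 4.37 with miR-25, and miR-25 gave a ratio past the limit, -0.83 (-0.95 to -0.71). The miR-93 ratio was 0.24 (0.14 to 0.34), inside the limit, and 0.39, past it, after rescaling. Adamts5, the main aggrecanase of cartilage, was at 8.04 RPKM in the control, 5.92 with miR-106b, 7.59 in the miR-93 library and 5.04 with miR-25. It was lower with miR-106b at -0.44 (-0.61 to -0.27) and with miR-25 at -0.67 (-0.86 to -0.49), whereas miR-93 gave -0.08 (-0.25 to 0.08). After rescaling the miR-106b ratio of Adamts5 was -0.36, inside 1.3-fold. Their substrate versican (Vcan) was at 24.2 RPKM in the control, 22.5 with miR-106b, 24.7 in the miR-93 library and 16.7 with miR-25, and its log2 ratio with miR-25 was -0.54 (-0.59 to -0.49).

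The procollagen-cleaving enzymes remove the N-terminal propeptide of fibrillar procollagens. Adamts2, the main one of them in skin and tendon, was at 4.03 RPKM in the control, 2.95 with miR-106b, 4.01 in the miR-93 library and 2.63 with miR-25, with log2 ratios of -0.45 (-0.61 to -0.30) for miR-106b, -0.01 (-0.15 to 0.14) for miR-93 and -0.62 (-0.78 to -0.45) for miR-25, the first of which became -0.37, inside the limit, after rescaling. Adamts14 was at 1.22 RPKM in the control, 1.12 with miR-106b, 1.06 in the miR-93 library and 0.730 with miR-25 and was lower with miR-25, at -0.74 (-1.10 to -0.37). In that library the fibrillar collagen genes were lower as well, with Col1a1 at 38.4 against 60.1 RPKM, Col1a2 at 77.6 against 284 and Col3a1 at 129.7 against 327. With miR-106b the same genes did not pass 1.3-fold, at 0.08, -0.22 and -0.34 on the log2 scale. These collagens are also on the fibroblast marker list, of which 7 of 9 genes were lower with miR-25.

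Of the remaining ADAMTS enzymes, Adamts12 was lower with each mimic. It was at 10.5 RPKM in the control, 5.65 with miR-106b, 6.20 in the miR-93 library and 5.59 with miR-25, with log2 ratios of -0.89 (-0.99 to -0.80), -0.76 (-0.86 to -0.66) and -0.91 (-1.01 to -0.81) in the order miR-106b, miR-93, miR-25, and no pair of mimics lay past 1.3-fold from each other. Adamts7, which like Adamts12 can degrade cartilage oligomeric matrix protein, was at 2.52 RPKM in the control, 1.80 with miR-106b, 2.42 in the miR-93 library and 1.51 with miR-25 and was lower with miR-106b at -0.48 (-0.68 to -0.28) and with miR-25 at -0.73 (-0.95 to -0.52). Adamts19, a gene linked to heart valve disease, was at 5.64 RPKM in the control, 3.93 with miR-106b, 1.56 in the miR-93 library and 6.42 with miR-25. The miR-93 library stood far below the others, with -1.86 (-2.11 to -1.62) against -0.52 (-0.70 to -0.35) for miR-106b, while miR-25 lay within 1.3-fold at 0.19 (0.03 to 0.35). Adamts6, known from defects of heart development, was at 3.13 RPKM in the control, 1.90 with miR-106b, 2.05 in the miR-93 library and 3.42 with miR-25, with -0.72 (-0.999 to -0.45) for miR-106b, -0.61 (-0.89 to -0.34) for miR-93 and 0.13 (-0.11 to 0.37) for miR-25. Adamts10, which binds fibrillin, was between 9.31 and 10.7 RPKM in all libraries and did not pass.

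The ADAMTS-like proteins bind to fibrillin microfibrils and other matrix components. Adamtsl2, which is mutated in a syndrome with thickened heart valves and skin, had the highest control level of them and was at 23.9 RPKM in the control, 10.2 with miR-106b, 17.7 in the miR-93 library and 7.34 with miR-25. All 3 mimics were below the control, in the order miR-93, miR-106b and miR-25, with log2 ratios of -0.43 (-0.53 to -0.34), -1.23 (-1.33 to -1.12) and -1.70 (-1.83 to -1.58), and the miR-93 ratio became -0.29, inside 1.3-fold, after rescaling. Adamtsl3 was at 6.70 RPKM in the control, 4.26 with miR-106b, 5.39 in the miR-93 library and 2.18 with miR-25, with -0.65 (-0.78 to -0.53) for miR-106b and -1.62 (-1.79 to -1.46) for miR-25, and with -0.31 (-0.43 to -0.19) for miR-93, inside 1.3-fold. Adamtsl1 was at 1.11 RPKM in the control, 0.794 with miR-106b and 0.940 in the miR-93 library. It was at 0.422 RPKM with miR-25, in the same order of libraries. Its log2 ratios were -0.48 (-0.77 to -0.20) for miR-106b and -1.40 (-1.76 to -1.04) for miR-25. Only its control level was above 1.0 RPKM, so the limit kept a gene that was highest in the control and favours its lower calls.

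Adamtsl5 and Adamtsl4 followed another order. Adamtsl5 was at 16.1 RPKM in the control, 10.7 with miR-106b, 4.42 in the miR-93 library and 17.5 with miR-25, and miR-93 gave -1.86 (-2.17 to -1.57), miR-106b -0.59 (-0.81 to -0.38) and miR-25 0.12 (-0.07 to 0.32). Adamtsl4, which promotes fibrillin-1 assembly in the eye, was at 2.07 RPKM in the control, 1.69 with miR-106b, 1.21 in the miR-93 library and 2.01 with miR-25 and passed only with miR-93, at -0.78 (-1.10 to -0.46). Fibrillin-1 itself (Fbn1) was at 37.3 RPKM in the control, 28.0 with miR-106b, 32.3 in the miR-93 library and 16.8 with miR-25, and Fbn2 at 5.47 RPKM in the control, 4.81 with miR-106b, 3.61 in the miR-93 library and 2.03 with miR-25. Both fibrillins were lower with miR-25, with log2 ratios of -1.15 (-1.20 to -1.09) and -1.43 (-1.60 to -1.27).

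Since miR-106b and miR-93 share a seed, their libraries were also compared directly, without the control. With miR-93, 4 members were higher and 8 lower than with miR-106b by more than 1.3-fold, or 31.6% of the 38. Of all genes 18.1% passed, with 8.69% higher and 9.44% lower. These counts were not rescaled to reads on listed genes, which moves the miR-93 ratios up more than the miR-106b ratios. Members near the limit, such as Timp2 (0.34), Adamts5 (0.36) and Mmp16 (-0.40), can change call with it. The lean towards lower members is therefore not secure. Adamts19, Adamtsl5 and Adamts8 lay farthest apart, with log2 ratios of miR-93 over miR-106b of -1.34 (-1.59 to -1.09), -1.27 (-1.58 to -0.97) and -1.27 (-1.57 to -0.97). The other members lower with miR-93 than with miR-106b were Adamts15, Adam33, Mmp12, Adamtsl4 and Mmp16, between -0.61 and -0.40. On the other side, Adamtsl2 was higher with miR-93 at 0.79 (0.68 to 0.90), followed by Adamts2 at 0.45, Adamts7 at 0.43 and Mmp28 at 0.41. The other 26 members lay within 1.3-fold of each other in both libraries, among them Timp3 at -0.02 (-0.12 to 0.08), Mmp2 at 0.03 (-0.03 to 0.08) and Adam17 at -0.01 (-0.12 to 0.10).

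**Figure D4:**
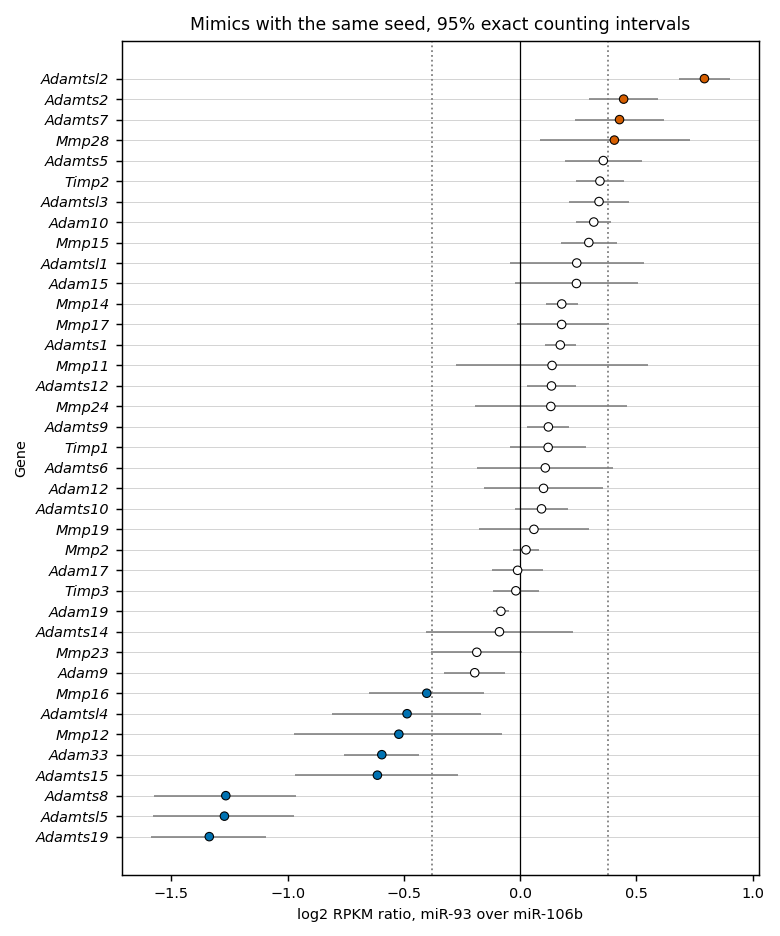
Log2 RPKM ratio of miR-93 over miR-106b for the 38 compared members, sorted, with 95% exact counting intervals and dotted lines at 1.3-fold. The 4 orange members are higher and the 8 blue members lower with miR-93, and the ratios run from -1.34 for Adamts19 to 0.79 for Adamtsl2.

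The library with the other seed lay farther from both. With miR-25, 14 members were higher and 11 lower than with miR-106b, or 65.8% of the 38 against 48.3% of all genes, of which 23.5% were higher and 24.9% lower. Against miR-93, 15 members were higher and 14 lower, or 76.3% against 48.2% of all genes, of which 23.4% were higher and 24.9% lower. The largest differences between miR-25 and miR-93 were those of Mmp15 at -2.35 (-2.56 to -2.14), Adamts19 at 2.05 (1.81 to 2.29), Adamtsl5 at 1.99 (1.70 to 2.28) and Adam10 at -1.92 (-2.03 to -1.81). Adam9, at 1.58 (1.47 to 1.70), and Adam33, at 1.502 (1.35 to 1.65), came next among the genes higher with miR-25. These direct comparisons share libraries with one another, and the choice to make them followed results on the same data.

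Of 63 genes that act with metalloproteinases, 60 were listed and 49 were compared. Under miR-106b 2 of the 49 were higher and 19 lower (42.9%). Under miR-93 these were 6 and 17 (46.9%), and under miR-25 they were 4 and 23 (55.1%), where all genes gave the shares named above. The 13 activators and binding partners included 5 lower genes with miR-106b and 5 with miR-93, with 0 higher, and 2 lower and 2 higher with miR-25. The counts of these 49 genes, here and below, were not rescaled to reads on listed genes, which moves the miR-25 ratios up by 0.15. With miR-25 the 2 lower genes, Plat (-0.38) and Pcsk6 (-0.40), lay near the limit. Plau (0.37), Bsg (0.31), Tspan14 (0.31) and Rhbdf1 (0.25) lay inside it on the other side. All of these can change call with rescaling, so the even count with miR-25 is not secure. Furin, the convertase that activates membrane-anchored MMPs and ADAMs, was at 28.7 RPKM in the control, 21.7 with miR-106b, 17.1 in the miR-93 library and 35.6 with miR-25, with log2 ratios of -0.40 (-0.48 to -0.33) for miR-106b and -0.75 (-0.83 to -0.67) with miR-93. Rescaling would bring its miR-106b ratio inside the limit and its miR-25 ratio, 0.31 (0.24 to 0.38), past it. Plaur, the receptor that concentrates urokinase on the cell surface, was at 6.03 RPKM in the control, 3.05 with miR-106b, 2.42 in the miR-93 library and 5.83 with miR-25 and likewise lower with miR-106b and miR-93, at -0.98 and -1.32, while miR-25 gave -0.05 (-0.33 to 0.23).

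Of 8 compared inhibitors and clearance genes, 4, 3 and 4 were lower and 0, 2 and 1 higher in the order miR-106b, miR-93, miR-25. Pcolce, the enhancer of procollagen C-proteinases, was at 139 RPKM in the control, 82.7 with miR-106b, 87.9 in the miR-93 library and 79.4 with miR-25. It is among the genes counted as lower with each mimic, so these counts are not of inhibitors alone. Among 14 matrix substrates 5, 5 and 11 were lower and 0 higher. Elastin (Eln) was at 52.3 RPKM in the control, 35.6 with miR-106b, 44.2 in the miR-93 library and 4.74 with miR-25, and the miR-25 library stood far below the others, at -3.47 (-3.61 to -3.33) on the log2 scale. Thbs2, a matrix protein that takes part in MMP2 clearance, was at 3.21 RPKM in the control, 0.829 with miR-106b, 1.06 in the miR-93 library and 3.49 with miR-25 and was lower with miR-106b and miR-93, at -1.95 and -1.60.

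The 14 compared substrates of shedding gave 5, 4 and 6 lower and 2, 4 and 1 higher genes in the order miR-106b, miR-93, miR-25. The epidermal growth factor receptor ligands Hbegf, Areg and Ereg, which ADAM17 releases from the membrane, were lower with each mimic. Hbegf was at 32.8 RPKM in the control, 17.3 with miR-106b, 5.80 in the miR-93 library and 12.9 with miR-25, with log2 ratios of -0.92 (-1.03 to -0.82), -2.50 (-2.67 to -2.34) and -1.34 (-1.46 to -1.22) in the order miR-106b, miR-93, miR-25. Areg was at 3.06 RPKM in the control, 1.74 with miR-106b, 0.482 in the miR-93 library and 0.772 with miR-25 and Ereg at 2.10 RPKM in the control, 1.07 with miR-106b, 0.803 in the miR-93 library and 0.997 with miR-25. Neuregulin (Nrg1), a growth factor of cardiomyocytes shed by ADAMs, was at 1.65 RPKM in the control, 2.34 with miR-106b, 3.15 in the miR-93 library and 1.63 with miR-25 and was higher with miR-106b and miR-93, at 0.50 (0.25 to 0.76) and 0.93 (0.69 to 1.18). Jag1, a Notch ligand, was at 10.9 RPKM in the control, 12.9 with miR-106b, 19.4 in the miR-93 library and 9.30 with miR-25 and was higher with miR-93, at 0.83 (0.74 to 0.93). Cd44, an adhesion receptor shed by ADAM10, was at 17.9 RPKM in the control, 14.0 with miR-106b, 10.6 in the miR-93 library and 10.0 with miR-25, with -0.76 (-0.86 to -0.66) for miR-93 and -0.83 (-0.93 to -0.73) for miR-25.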

How the data were processed

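Total RNA of 4 cultures of neonatal rat cardiomyocytes was sequenced as 50-bp single reads, with 1 library per mimic. The authors ran FASTQC, trimmed adaptors by Cutadapt, aligned reads to Rnor 6.0 with STAR (2.7 in the submitters' processing notes), rounded gene counts and deposited RPKM values computed with edgeR's rpkm function. The counting program and its strand setting are not given in the sources used here, so reads of overlapping and antisense genes cannot be told apart. Gene coordinates are not given because the reference tables are of another build.

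RPKM ratios of each mimic over cel-miR-67 were computed without a pseudocount for genes above 1.0 RPKM in any library, and 1.3-fold was the limit of the study. Whole reads were recovered for all 15731 genes as the smallest numbers that rebuild the deposited values (largest relative deviation 1.0e-13) with a whole gene length. If the reads of a gene share a further factor, its interval is too wide. The 95% exact (Clopper-Pearson) intervals use these reads and the implied library sizes. The read recovery was tested on simulated data. With 1 library per group no test was run.

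Named members were those past 1.5-fold with any mimic, 17 fixed genes and the 5 most abundant in the control, and members named as not compared, as well as Adamts10, were added so that all 52 are accounted for. The members, lists and direct comparisons were chosen with earlier results of these data known. Symbols listed more than once (176, none a member) entered only the background. Alternatives were other RPKM limits, pseudocounts, 1.5-fold, centring and rescaling. The scripts ran under Python 3.11.15 with scipy 1.17.1, numpy 2.4.6, matplotlib 3.10.9 and pandas 2.3.3.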

Additional observations from a re-analysis of the deposited data

Results flagged for a closer look

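For 5 members, 1 mimic lay above cel-miR-67 and another below it, both by more than 1.3-fold. In each case the farthest apart were miR-25 and miR-93, and the difference between them was not tested because each mimic has 1 library. Mmp15 had log2 ratios to the control of 0.38 with miR-93 and -1.97 with miR-25, a span of 2.35, although the miR-93 ratio fell just inside 1.3-fold with a pseudocount of 0.1 RPKM (0.377) or 1 RPKM (0.34), which leaves 4 members. Adam9 had -0.97 and 0.61, a span of 1.58, and was also lower with miR-106b, at -0.78. Adam33 had -0.53 and 0.97, a span of 1.502. Mmp12 had -0.70 and 0.63, a span of 1.33, from 71 reads with miR-93 and 178 with miR-25. Mmp16 had -0.75 and 0.55, a span of 1.302. In the same libraries the summed smooth muscle markers stood at 583 RPKM with miR-93 and 2051 RPKM with miR-25. The summed cardiomyocyte markers stood at 10436 and 6514 RPKM and the summed fibroblast markers at 759 and 333 RPKM. The part of these differences in the 5 genes was not tested.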

How the results depend on the processing

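Of 54 alternative counts of members past the limit, 46 stayed within 1.5 times the count reported and 8 did not. With no filter on low values, 6 members were higher with miR-106b and 8 with miR-93, which adds genes of few reads. With a limit of 1.5-fold, 10 members were lower with miR-106b, 1 was higher with miR-93 and 5 were higher with miR-25. The count of 2 members higher with miR-93 became 1 with a pseudocount of 0.1 RPKM, 1 with a pseudocount of 1 RPKM and 4 with rescaling to reads on listed genes. That rescaling moved the log2 ratios up by 0.08 with miR-106b and by 0.15 with each of miR-93 and miR-25. Of 480 alternative log2 ratios of named members, 431 stayed within the counting interval, 49 left it, and none past the limit changed sign. A pseudocount of 1 RPKM brought inside the limit Adamtsl1 (-0.23), Adam15, Adamts7 (-0.33) and Adamts2 (-0.35) with miR-106b, Mmp15 with miR-93, and Adamts14 (-0.36) and Mmp28 (0.32) with miR-25, among the named members compared.

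No paired analysis was possible because each mimic has 1 library. For the same reason no replicate could be left out, and neither the spread between cultures nor a batch could be measured. A gene near 1.0 RPKM had a median of 57.5 reads in the control, so differences near 1.3-fold are not resolved by counting at that level. Summed over each culture, levels cannot tell cell types apart.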
